A study of Mus musculus with 18 samples.

Results

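Mitochondrial ribosomal protein genes encode the proteins of the ribosome that works inside mitochondria. They were taken as every row of the count tables whose symbol is Mrpl or Mrps followed by a number and at most 1 letter a, b or c. The rule gave 78 of the 55291 symbols in each table: 49 with an Mrpl symbol (named for the large subunit) and 29 with an Mrps symbol (named for the small subunit). Subunits here follow the symbol, and whether each protein is part of the ribosome was not checked. No measured value entered the choice. RNA was sequenced from liver and pancreas of mice with 2, 1 or 0 intact copies of Otub2, a gene for a deubiquitinating enzyme, in a study concerned with pancreatic beta cells. Liver gave 2 libraries from OTUB2 +/+ animals (WT) and 5 from OTUB2 +/- animals (HET), with no sex given. Pancreas gave 3 WT (1 female, 2 males), 5 HET (2 females, 3 males) and 3 libraries from OTUB2 -/- animals (HOM, 3 males). The labels call the mice Otub2 knock-outs kept under normal conditions and give no other allele, no agent, no age and no deleted interval. Libraries are named here by genotype and the submitters' replicate number.

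The mitochondrial ribosome makes the few proteins that mitochondrial DNA encodes, all of them subunits of the oxidative phosphorylation complexes. Its RNA comes from mitochondrial DNA, but its proteins are encoded in the nucleus, made in the cytosol and imported. Some of these proteins have counterparts in bacterial ribosomes and others arose within the mitochondrial lineage. In other work, promoters of nuclear genes for mitochondrial proteins often carry sites for GABPA (an ETS-family factor), NRF1 and YY1, and the liver is a tissue rich in mitochondria.

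The promoter sequence of 69 of the 78 genes was found in the RefSeq table for GRCm38.p6, from 250 bases before to 50 bases after the start of the gene. The short cores were searched on both strands were CCGGAAG for GABPA, GCATGCG for NRF1 and AAGATGG for YY1. CCGGAAG was present in 36.2% of these promoters, against 12.3% of the promoters of the 16516 protein-coding genes with an entry. GCATGCG was present in 11.6%, against 4.66%. AAGATGG was present in 18.8%, against 6.43%. At least 1 of the cores was found in 53.6% of the member promoters and in 21.2% of all. By subunit the share with any core was 53.5% for large and 53.8% for small. GCATGCG was found in 7 of 43 large-subunit promoters and 1 of 26 small-subunit promoters. A match is a stretch of letters and no evidence of binding, and the shares are descriptions with no test.

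The parts of 5 promoters that lie outside annotated exons and hold a core are shown, because these genes come up in the liver and pancreas results or hold 2 cores side by side. Capitals mark the cores. Where a core meets its own reverse complement, as GCATGCG does, the merged letters are in capitals, and CTTCCGG is CCGGAAG read on the other strand. Each is written 5′ to 3′ in the direction of its gene. Mrpl10 is at chr11:97041422-97041479 on the + strand, Mrpl22 at chr11:58171586-58171660 (+), Mrpl52 at chr14:54426793-54426893 (+), Mrps18a at chr17:46110953-46110985 (+) and Mrps22 at chr9:98601680-98601715 on the - strand (GRCm38.p6).
Mrpl10: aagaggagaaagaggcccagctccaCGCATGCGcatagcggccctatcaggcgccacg
Mrpl22: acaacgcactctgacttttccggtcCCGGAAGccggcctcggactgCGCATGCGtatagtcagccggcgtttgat
Mrpl52: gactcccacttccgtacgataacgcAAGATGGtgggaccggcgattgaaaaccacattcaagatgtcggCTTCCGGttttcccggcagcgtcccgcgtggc
Mrps18a: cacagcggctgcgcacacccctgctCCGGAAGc
Mrps22: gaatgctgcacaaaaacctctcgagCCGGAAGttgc
The Mrpl10 stretch held the NRF1 core and the Mrps18a and Mrps22 stretches the GABPA core. Mrpl22 held the GABPA and the NRF1 core, and Mrpl52 the YY1 and the GABPA core. Mrpl22 and Mrps22 were picked for display after their values were seen.

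The 78 genes were spread over 17 chromosomes, with 11 on chromosome 11 and 8 on chromosome 17 (GENCODE mouse release 21, mm10). They spanned 789 to 121773 bases, with a median of 7899. In 33 of 78 genes (42.3%) the start lay within 1000 bases of the start of a gene on the opposite strand. Among the 21560 protein-coding genes of the tables, 2337 (10.8%) had such a neighbour. Mrpl46 and Mrps11 are each other's neighbour and overlap at their starts, on the - and + strands of chromosome 7. Exons of 33 members overlapped exons of another gene, 28 of them on the opposite strand. Use of the strand in counting is not given in the sources used here. Reads from such overlaps can therefore not be assigned with certainty.

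Total counts ran from 155201 (WT 1) to 1686234 (HET 5) in liver and from 49502 (HET 9) to 1326541 (HET 11) in pancreas. Otub2 itself was too sparse in liver to check the labels: 1 count over both WT and 5 counts over the 5 HET libraries (log2 fold change −0.34 ± 1.88 SE, edgeR adjusted p = 0.933). In pancreas it had 3, 4 and 3 counts in WT, 0, 0, 0, 0 and 1 in HET, and 1, 0 and 0 in HOM. All 12 hepatocyte markers listed were detected in liver and all 8 islet markers had 0 counts there. In pancreas 7 of 14 acinar markers were detected and 7 were at 0 in every library (Prss1, Prss2, Cela2a, Cela3b, Ctrb1, Amy2a5 and Cel). Of 8 islet markers, 7 were detected there. Pancreata HET 11 and HET 16 stood apart from the other 9 in several marker lists. The 12 gastric genes summed to at least 192917 CPM in each of them and to at most 25736 CPM in the others. The acinar markers summed to at least 62821 against at most 15988 CPM, and the duct markers to at least 5670 against at most 3879 CPM. In bulk tissue, fewer cells of a type and less RNA per cell cannot be told apart. The labels do not say that each sample is a separate animal, so p-values may measure a spread that is partly technical.

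In liver nearly the whole family was detected. Of the 78 genes, 62 had a count in every one of the 7 libraries (42 large, 20 small), a share of 79.5% against 10.6% of all rows of the table. Only 22 reached 10 counts in every library. The number detected was 65 in WT 1 and 71 in WT 2, and 75, 74, 71, 69 and 76 in HET 1 to HET 5. At the depth of the smallest liver library, 65.3 to 71.1 genes were expected in the HET livers against 65 and 67.1 in the WT livers, so the ranges of the genotypes overlapped. Mrpl53 and Mrps30 had 0 counts in all 7 livers. Both overlap a gene on the opposite strand, and Mrpl53 also overlaps Gm42688 on the same strand. For Mrps30 the opposite gene, B430218F22Rik, had 1.46 ± 2.06 CPM in WT (SD, n = 2) and 1.27 ± 1.83 CPM in HET (SD, n = 5). B430218F22Rik does not cover the 3′ end of Mrps30 and shares 0 of its last 300 exon bases.

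**Figure D1:**
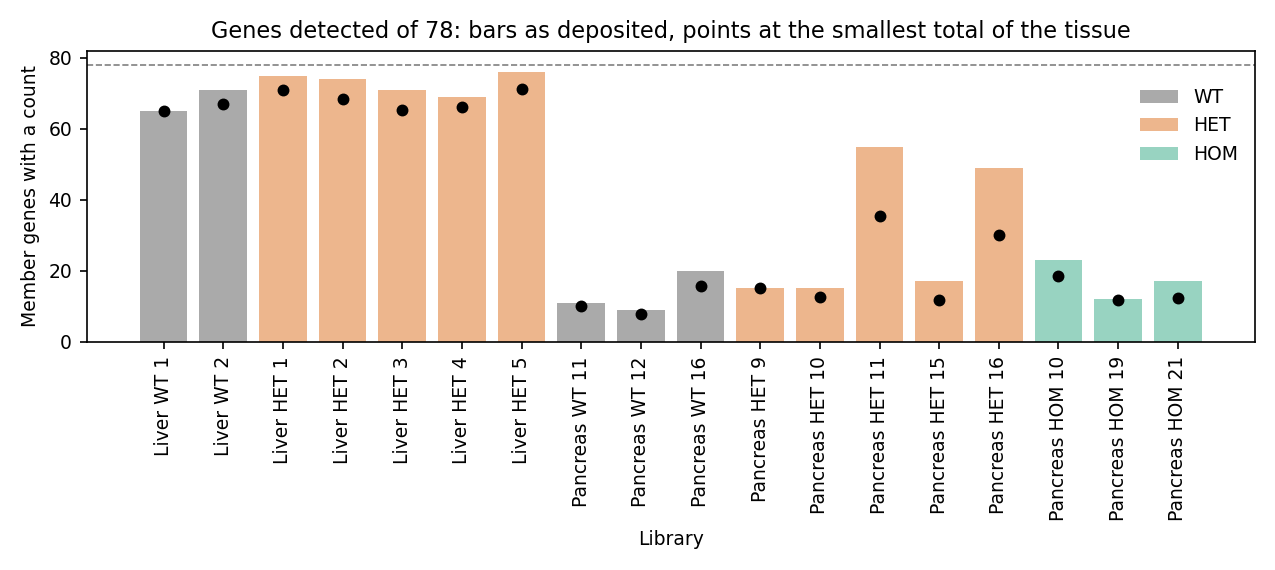
Number of the 78 genes with at least 1 count in each library (bars, coloured by genotype), with the number expected if each library were reduced to the smallest total of its tissue (black points). The dashed line marks 78. Livers reached 65 to 76 genes, pancreata HET 11 and HET 16 reached 55 and 49, and the other 9 pancreata 9 to 23.

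Levels in liver differed widely between members. Counts from 3′ ends depend little on transcript length, so CPM (counts per 1e+06 counts of the library) was compared between genes. The comparison is limited where exons overlap another gene, since how such reads were counted is not known here. The mean over the 7 livers ran from 0 to 319 CPM, with a median of 46.9. The median was 53.7 CPM for the 49 large-subunit genes and 36.3 CPM for the 29 small-subunit genes. In all, 14 genes were at 100 CPM or more, 11 of them large, and 12 were under 10 CPM.

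The most abundant was Mrpl12, part of the stalk that receives translation factors. It had 290 and 245 CPM in the WT livers and 471, 381, 259, 385 and 201 CPM in HET 1 to HET 5. The genotypes overlapped, with the highest and the lowest values both in HET (log2 fold change 0.44 ± 0.35 SE, edgeR adjusted p = 0.697). Mrpl14 had 206 and 309 CPM in WT and 246, 281, 274, 336 and 266 CPM in HET. Mrpl52, a protein with no bacterial counterpart, had 251 and 178 CPM in WT and 168, 186, 254, 234 and 274 CPM in HET. For both genes the genotypes overlapped. Next came Mrpl30 (mean 171 CPM), Mrpl38 (166 CPM) and Mrpl2 (163 CPM), whose protein lies near the peptidyl transferase centre.

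Small-subunit symbols were led by Mrps18a (137 CPM), Mrps7 (133 CPM) and Mrps24 (118 CPM), followed by Mrps17 (80.4 CPM), Mrps28 (78.9 CPM) and Mrps5 (76.2 CPM). Mrps18a had 103 and 152 CPM in WT and 119, 92.9, 160, 261 and 71.8 CPM in HET, a wide spread within HET that took in both WT values. The 3 genes named Mrps18 stood at very different levels: Mrps18a at 137 CPM, Mrps18c at 3.33 CPM and Mrps18b at 0.98 CPM. Mrps18b was at 0 in both WT and in HET 3 and HET 4, with 6 counts over the other livers. Exons of Gm16279, on the opposite strand, cover the 3′ end of Mrps18b and its last 300 exon bases, and Gm43511 overlaps Mrps18c on the same strand. Both partners had 0 counts in liver, and how reads in such overlaps were counted is not known here. The protein of Mrps18a, like that of Mrps30, sits in the large subunit despite its symbol. The 2 genes named for the small subunit but built into the large one were therefore its most abundant symbol and a symbol at 0.

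**Figure D2:**
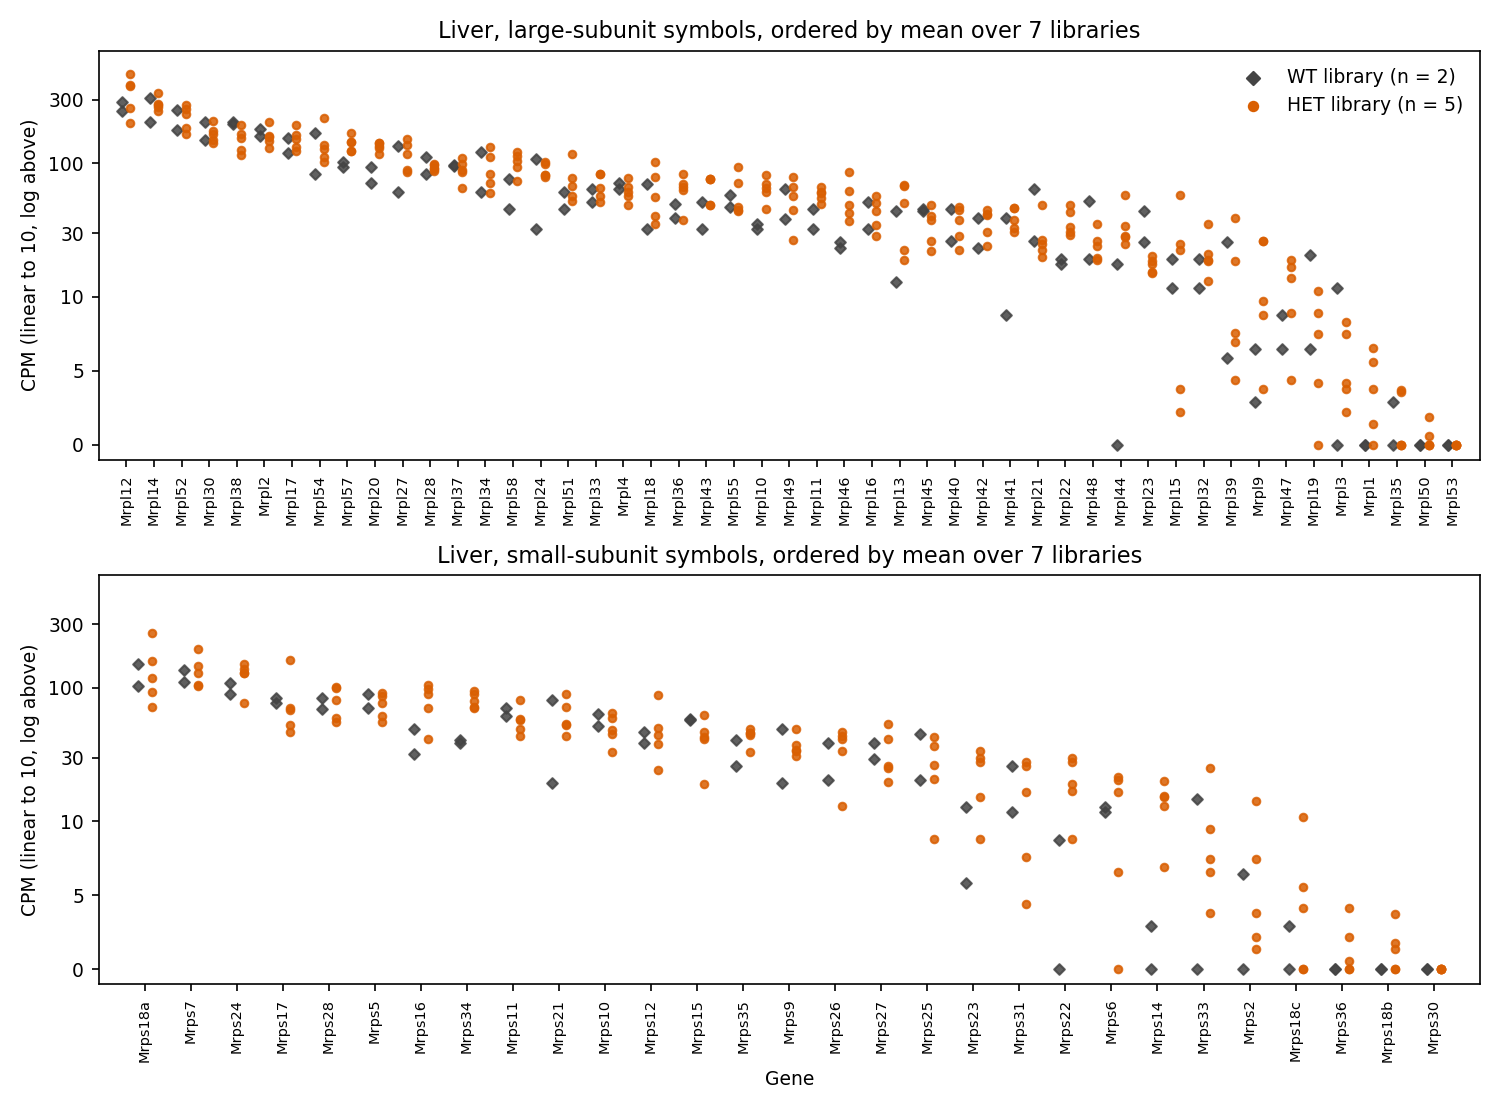
CPM of each gene in each of the 7 livers (WT diamonds, HET circles), for large-subunit symbols (top) and small-subunit symbols (bottom), ordered by the mean. The vertical axis is linear up to 10 CPM and logarithmic above it. Mrpl12 leads at a mean of 319 CPM, and Mrpl53 and Mrps30 sit at 0.

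The family as a whole took a slightly larger share of counts in HET livers. Summed over the 78 genes, CPM was 4343 and 4378 in WT and 5108, 4728, 4608, 5396 and 5131 in HET 1 to HET 5. The means were 4360 ± 25.04 (SD, n = 2) and 4994 ± 321 (SD, n = 5), a ratio of 1.15, and the lowest HET library was above both WT. Large-subunit genes summed to 3228 and 3158 CPM in WT and to 3784, 3486, 3479, 3771 and 3701 CPM in HET, again with no overlap. Small-subunit genes summed to 1115 and 1220 CPM in WT and to 1323, 1242, 1129, 1625 and 1430 CPM in HET. Here HET 3 lay below WT 2. A sum over many genes was given no p-value.

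The proportion of large to small subunit did not separate the genotypes. The ratio of their summed counts was 2.90 and 2.59 in WT and 2.86, 2.81, 3.08, 2.32 and 2.59 in HET. The means were 2.74 ± 0.217 (SD, n = 2) and 2.73 ± 0.289 (SD, n = 5), a difference of −0.011 that is far below the spread between libraries. The lowest and the highest ratio both belonged to HET libraries.

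**Figure D3:**
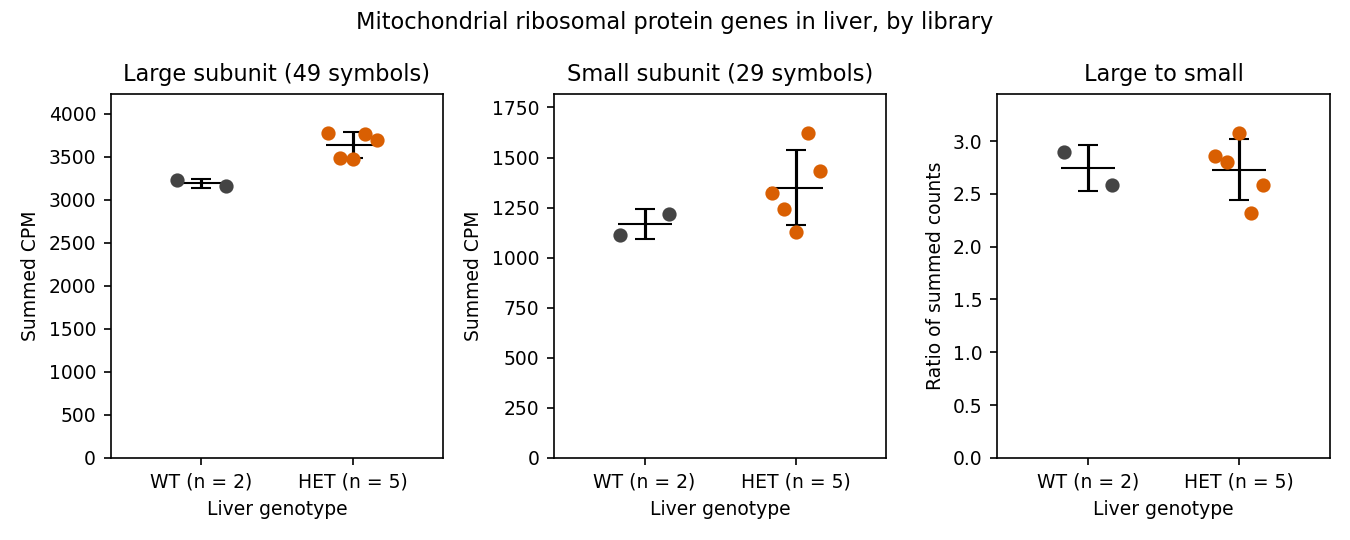
Summed CPM of the large-subunit symbols (left) and small-subunit symbols (middle) and the ratio of the subunits' summed counts (right) in each liver, with the mean and SD as black bars. Large-subunit sums were 3158 to 3228 CPM in WT and 3479 to 3784 CPM in HET, while the ratios of HET (2.32 to 3.08) spanned those of WT (2.59 to 2.90).

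CPM is a share of all counts, so sums of other genes are given beside that of the members. The 12 hepatocyte markers summed to 146064 to 153685 CPM in WT and to 126843 to 138625 CPM in HET, without overlap. Transcripts of mitochondrial DNA made up 0.248% to 0.288% of counts in WT and 0.109% to 0.243% in HET, also without overlap. The 10 Kupffer cell markers summed to 767 to 773 CPM in WT and to 369 to 768 CPM in HET. Both WT totals were also among the 3 smallest of the 7 livers. The part of these in the summed levels was not tested.

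No single member passed the test between HET and WT livers. The low-count filter let 62 of the 78 genes into the test (41 large, 21 small) among 4803 genes. edgeR called 0 members at an adjusted p under 0.05, where it called 0% of all genes. DESeq2 called 0 members, where it called 0.333% of all genes. At an unadjusted p under 0.05, 7 members were higher in HET (5.39% of all genes tested were) and 0 were lower (4.96% were). The log2 fold change was above 0 in 50 of the 62, against 52.1% of all genes tested. Its median was 0.29 over the members, 0.30 over the large and 0.18 over the small subunit, and 0.03 over all genes. Mrpl9, Mrpl15, Mrpl22, Mrpl44, Mrps22 and Mrps23 passed the filter through HET libraries alone, and Mrpl23 through WT libraries alone. Genes that pass in this way have to reach higher values on that side, so their directions are descriptions only. Mrpl44 and Mrps22 are among the 7, and all that passed through HET alone are among the 50. These counts and medians cover only the 62. Scaling by total counts moved the median of all genes from 0.03 to −0.07, that of the members to 0.18 and the number above 0 to 44. Without WT 1, the smallest library, the members' median was 0.51 and that of all genes 0.11. Without WT 2, 43 of 66 members were above 0 (65.2%, against 56.6% of all genes), with a median of 0.27 against 0.13.

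Sorted by ancestry, a split chosen after the values were seen, members with a bacterial counterpart had a median of 0.26 (29 of 36 above 0). Members specific to mitochondria had a median of 0.39 (21 of 26 above 0). All 5 HET libraries were above both WT in 9 tested members, where 6.95% of all genes were. Among them, Mrpl22, Mrpl44 and Mrps22 passed the filter through HET libraries alone. For Mrps22 the groups were separated by 8.76 CPM in WT 2 against 8.77 CPM in HET 3. All 5 were below both WT in 2 members, where 11.1% of all genes were. Mrpl23, among these, passed the filter through WT libraries alone.

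**Figure D4:**
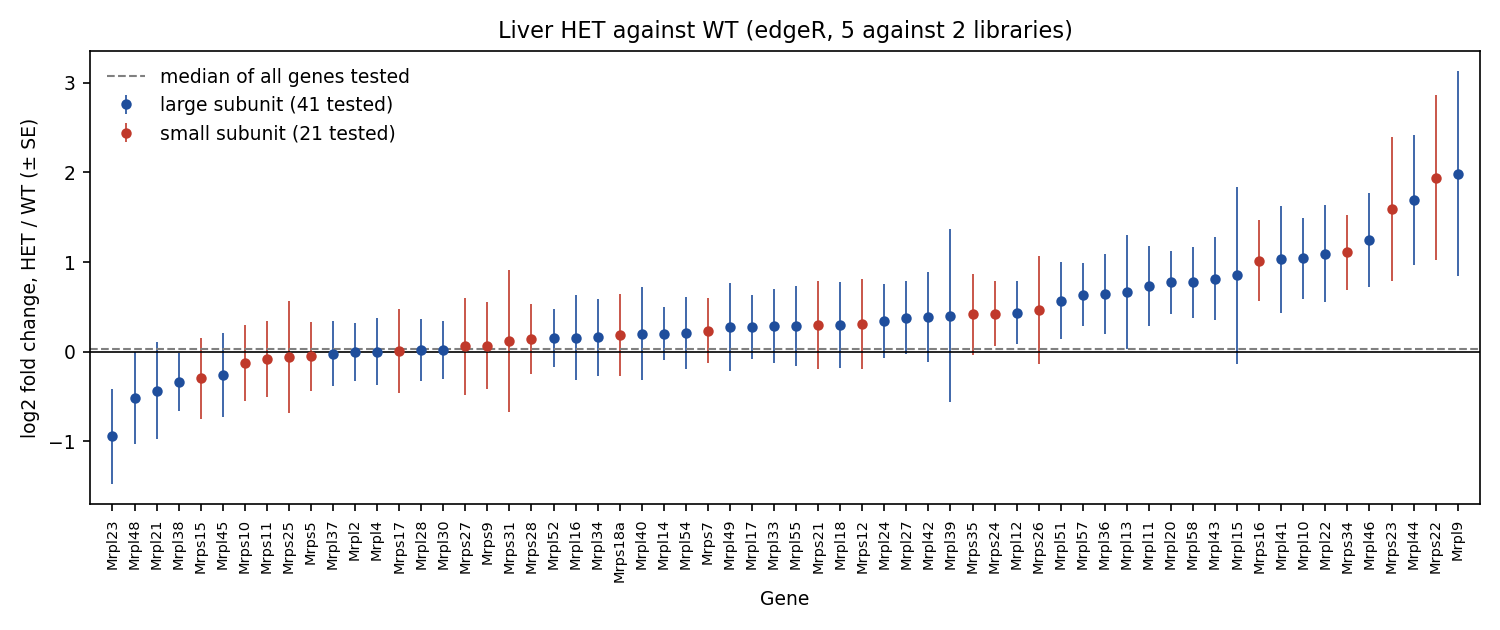
log2 fold change of HET over WT for the 62 tested genes, sorted, with SE bars, large subunit in blue and small subunit in red. The dashed line is the median of all 4803 genes tested (0.03). Values run from −0.94 (Mrpl23) to 1.99 (Mrpl9), and no gene had an adjusted p under 0.05. Mrpl23 passed the low-count filter through WT libraries alone and Mrpl9 through HET libraries alone.

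Among the members with the smallest p on the higher side, Mrps34 came first. It encodes a small-subunit protein found only in mitochondrial ribosomes (chr17:24895116-24897502, + strand, mm10). It had 38.7 and 40.9 CPM in the WT livers and 72.6, 70.7, 89.9, 94.5 and 79.5 CPM in HET 1 to HET 5. Every HET library was above both WT (log2 fold change 1.11 ± 0.42 SE, edgeR adjusted p = 0.392), and the fold change ranged from 0.97 to 1.17 over the alternatives tried. Its exons overlap those of 2 other genes. Nme3, on the same strand, covers the 3′ end of Mrps34 and all of the last 300 exon bases, where 3′ reads fall. Nme3 had 0 CPM in WT and 0.119 ± 0.265 CPM in HET (SD, n = 5), so the sum with Mrps34 was 39.8 ± 1.56 CPM in WT (SD, n = 2) and 81.5 ± 10.4 CPM in HET (SD, n = 5). Mapk8ip3, on the opposite strand, shares 1309 of the 2064 exon bases and 106 of the last 300, and does not cover the 3′ end. Mapk8ip3 had 61.1 ± 4.4 CPM in WT (SD, n = 2) and 18.4 ± 5.79 CPM in HET (SD, n = 5) and was thus lower in HET where Mrps34 was higher. The sum of Mrps34 and Mapk8ip3 was 101 ± 5.96 CPM in WT (SD, n = 2) and 99.9 ± 9.14 CPM in HET (SD, n = 5). Whether reads of this pair were assigned alike in all libraries was not tested. Both partners were looked up after the value of Mrps34 was seen.

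Mrpl46 had 25.8 and 23.4 CPM in WT and 48.4, 62.4, 37.3, 86.9 and 42.7 CPM in HET, without overlap (log2 fold change 1.25 ± 0.53 SE, edgeR adjusted p = 0.423). Its head-to-head neighbour Mrps11 had 70.9 and 61.3 CPM in WT and 57.7, 58.2, 81.1, 49.1 and 43.3 CPM in HET, which overlapped. The log2 fold change of Mrps11 was −0.08 ± 0.43 SE. The difference between these genes was not tested.

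Mrpl10, which anchors the stalk to the large subunit and whose promoter carries the NRF1 core shown above, had 32.2 and 35 CPM in WT. In HET it had 81.9, 61, 70.1, 45.3 and 65.8 CPM, all above WT (log2 fold change 1.04 ± 0.45 SE, edgeR adjusted p = 0.438). Mrpl44, whose protein has an RNase III-like fold, had 0 and 17.5 CPM in WT and 57.7, 25, 28.5, 34 and 27.9 CPM in HET. The 0 is in the smallest library, and the WT values rest on 6 counts in all (log2 fold change 1.69 ± 0.72 SE, edgeR adjusted p = 0.434). Without WT 1 the fold change was 1.13. Without WT 2 the remaining WT library had 0 counts, and the fitted value of 7.49 is no bound. Mrps16, of the small-subunit body, had 32.2 and 49.6 CPM in WT and 98.7, 70.7, 41.7, 106 and 90.7 CPM in HET. HET 3 was below WT 2, so the genotypes overlapped (log2 fold change 1.02 ± 0.45 SE, edgeR adjusted p = 0.46). The other 2 members with an unadjusted p under 0.05, named after their values were seen, were Mrpl20 and Mrps22. Mrpl20 had 70.9 and 93.4 CPM in WT and 117 to 141 CPM in HET. Mrps22 had 0 and 8.76 CPM in WT and 8.77 to 29.7 CPM in HET. Mrpl44 and Mrps22 passed the filter through HET libraries alone, so their directions are descriptions only.

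On the lower side, Mrpl23, whose protein lines the exit of the peptide tunnel, had 25.8 and 43.8 CPM in WT. In HET it had 18.6, 15.2, 17.5, 15.1 and 20.2 CPM, all below both WT (log2 fold change −0.94 ± 0.53 SE, edgeR adjusted p = 0.57). Mrpl23 passed the filter through WT libraries alone, so its direction is a description only. Without WT 2 the log2 fold change was −0.48. A processed copy, Mrpl23-ps1, is annotated, and reads could be split between the 2. Mrpl38 had 206 and 198 CPM in WT and 156, 115, 167, 193 and 126 CPM in HET, also without overlap. It is among the 6 most abundant large-subunit genes, and its log2 fold change was −0.34 ± 0.32 SE (edgeR adjusted p = 0.752). Mrpl48 (−0.51 ± 0.51 SE), Mrpl21 (−0.44 ± 0.54 SE) and Mrps15 (−0.30 ± 0.46 SE) each had at least 1 WT value within the HET range. The WT values of Mrpl21 were 64.4 and 26.3 CPM, so 1 library carried most of its difference.

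The other parts of the mitochondrial translation system gave 0 calls by edgeR in every list, with adjusted p at or above 0.242. Of the 7 symbols listed for other mitoribosome proteins, 5 were in the count tables. Of these, 3 were tested and all 3 had values above 0. Chchd1, a small-subunit protein, had 13.4 ± 9.89 CPM in WT (SD, n = 2) and 61.2 ± 14.8 CPM in HET (SD, n = 5). Its log2 fold change was 2.08 ± 0.55 SE. Chchd1 passed the filter through HET libraries alone, so it had to be higher there and its direction is a description only. Aurkaip1 had a log2 fold change of 0.17 ± 0.33 SE and Dap3 of 0.10 ± 0.39 SE. Of the translation factors, 6 of 7 tested were above 0, with a median of 0.20. Tufm, the elongation factor that delivers aminoacyl-tRNA, had 96.8 ± 8.92 CPM in WT (SD, n = 2) and 129 ± 28.1 CPM in HET (SD, n = 5).

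The remaining lists were counted in the same way. Of the assembly factors, 2 of 6 tested were above 0 (median −0.13), with Malsu1, an assembly factor of the large subunit, at 2.04 ± 0.79 SE. Malsu1 passed the filter through HET libraries alone, so its direction is a description only. Of the mitochondrial aminoacyl-tRNA synthetases, which charge the tRNAs, 1 of 7 was above 0 (median −0.41). Of the genes for mitochondrial DNA transcription and upkeep, 1 of 4 was above 0 (median −0.25). Of the import components and proteases, 7 of 12 were above 0 (median 0.10). Of the transcripts of mitochondrial DNA itself, 0 of 8 tested were above 0 (median −0.78). mt-Nd1, a complex I subunit made by this ribosome, had 162 ± 80.6 CPM in WT (SD, n = 2) and 58.0 ± 13.4 CPM in HET (SD, n = 5), with an edgeR adjusted p of 0.247.

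Regulators of mitochondrial biogenesis had 2 of 5 tested above 0 (median −0.33). Ppargc1b, a coactivator, had 73.1 ± 12.2 CPM in WT (SD, n = 2) and 21.3 ± 9.92 CPM in HET (SD, n = 5), with a log2 fold change of −1.62 ± 0.46 SE. Its relative Pprc1 had 33.6 ± 1.99 CPM in WT (SD, n = 2) and 7.74 ± 2.49 CPM in HET (SD, n = 5), with a log2 fold change of −2.11 ± 0.73 SE. The edgeR adjusted p was 0.247 and 0.344. Pprc1 passed the filter through WT libraries alone, so it had to be lower in HET and its direction is a description only. Yy1, a factor whose core was searched for in the promoters, had 10.5 ± 5.76 CPM in WT (SD, n = 2). In HET it had 18.9 ± 14.8 CPM (SD, n = 5), with a log2 fold change of 0.94 ± 0.93 SE. Yy1 passed the filter through HET libraries alone, so its direction is a description only. The members' values thus lay mostly above 0 beside 8 tested transcripts of mitochondrial DNA that lay below 0, and no difference between lists was tested.

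In pancreas fewer members were detected per library, as were fewer rows of any kind. A count was found in 3789 to 8090 rows of a pancreas library and in 8282 to 14310 rows of a liver library. Depth also differed (total counts 49502 to 1326541 in pancreas, 155201 to 1686234 in liver), and these numbers were not brought to a common depth. Liver WT 1, with 155201 counts, held 65 members and 8282 rows. Pancreata with more counts than that were HET 15, WT 16 and HOM 10 (17, 20 and 23 members) and HET 11 and HET 16 (55 and 49). The part of depth in the difference between tissues was not tested. Over all libraries of a tissue, 35017 rows had no count in pancreas and 36739 in liver. Among members these were 11 in pancreas and 2 in liver. Only Mrpl19 and Mrpl52 had a count in all 11 libraries, 2.56% of members against 0.702% of all rows, and 11 members had 0 counts in every one (Mrpl9, Mrpl22, Mrpl35, Mrpl50, Mrpl53, Mrpl55, Mrps10, Mrps18b, Mrps22, Mrps27 and Mrps30). Libraries HET 11 and HET 16, the 2 with high gastric, acinar and duct markers, held 7455 member counts over 60 members. The other 9 held 2118 member counts over 47 members. The 2 were also the deepest pancreata, with 1326541 and 670588 counts against 49502 to 205103. Summed member CPM overlapped: 3602 and 3992 in these 2 and 1118 to 4020 in the others. At the depth of the smallest pancreas library, 35.4 and 30.1 members were expected in the 2 and 7.66 to 18.6 in the others.

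Which members were counted also differed between these sets of libraries, a distinction drawn from the data and not from the labels. In HET 11 and HET 16 the 4 most counted members were Mrpl54, Mrpl14, Mrpl2 and Mrpl52, with 38.8% of member counts. In the other 9 they were Mrpl19, Mrpl23, Mrpl52 and Mrpl16, with 59.4%. In the livers the first 4 took 19.4%. The rank correlation of member levels with the liver levels was 0.675 for HET 11 and HET 16 and 0.00694 for the other 9, across 78 genes that are not independent. With so few counts per gene in the 9, the weak correlation is a description and no finding.

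Single genes show the difference. Mrpl14, a core protein of the large subunit, had 295 counts in HET 11, 349 in HET 16 and 0 in each of the other 9 pancreata. Mrpl19 had 46, 53 and 37 counts in HET 9, HET 10 and HET 15, and 28 and 10 in HET 11 and HET 16. Its counts were 11, 3 and 92 in the WT pancreata and 36, 63 and 90 in the HOM pancreata. In CPM Mrpl19 ran from 14.9 (HET 16) to 1244 (HOM 19), while its mean in liver was 8.33. Its exons share 1962 bases with Gcfc2 on the opposite strand. Mrpl52 was counted everywhere, at 283, 929 and 84.9 CPM in WT, 525, 679, 291, 49.2 and 157 CPM in HET and 224, 691 and 69.9 CPM in HOM. These values overlapped between all genotypes.

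**Figure D5:**
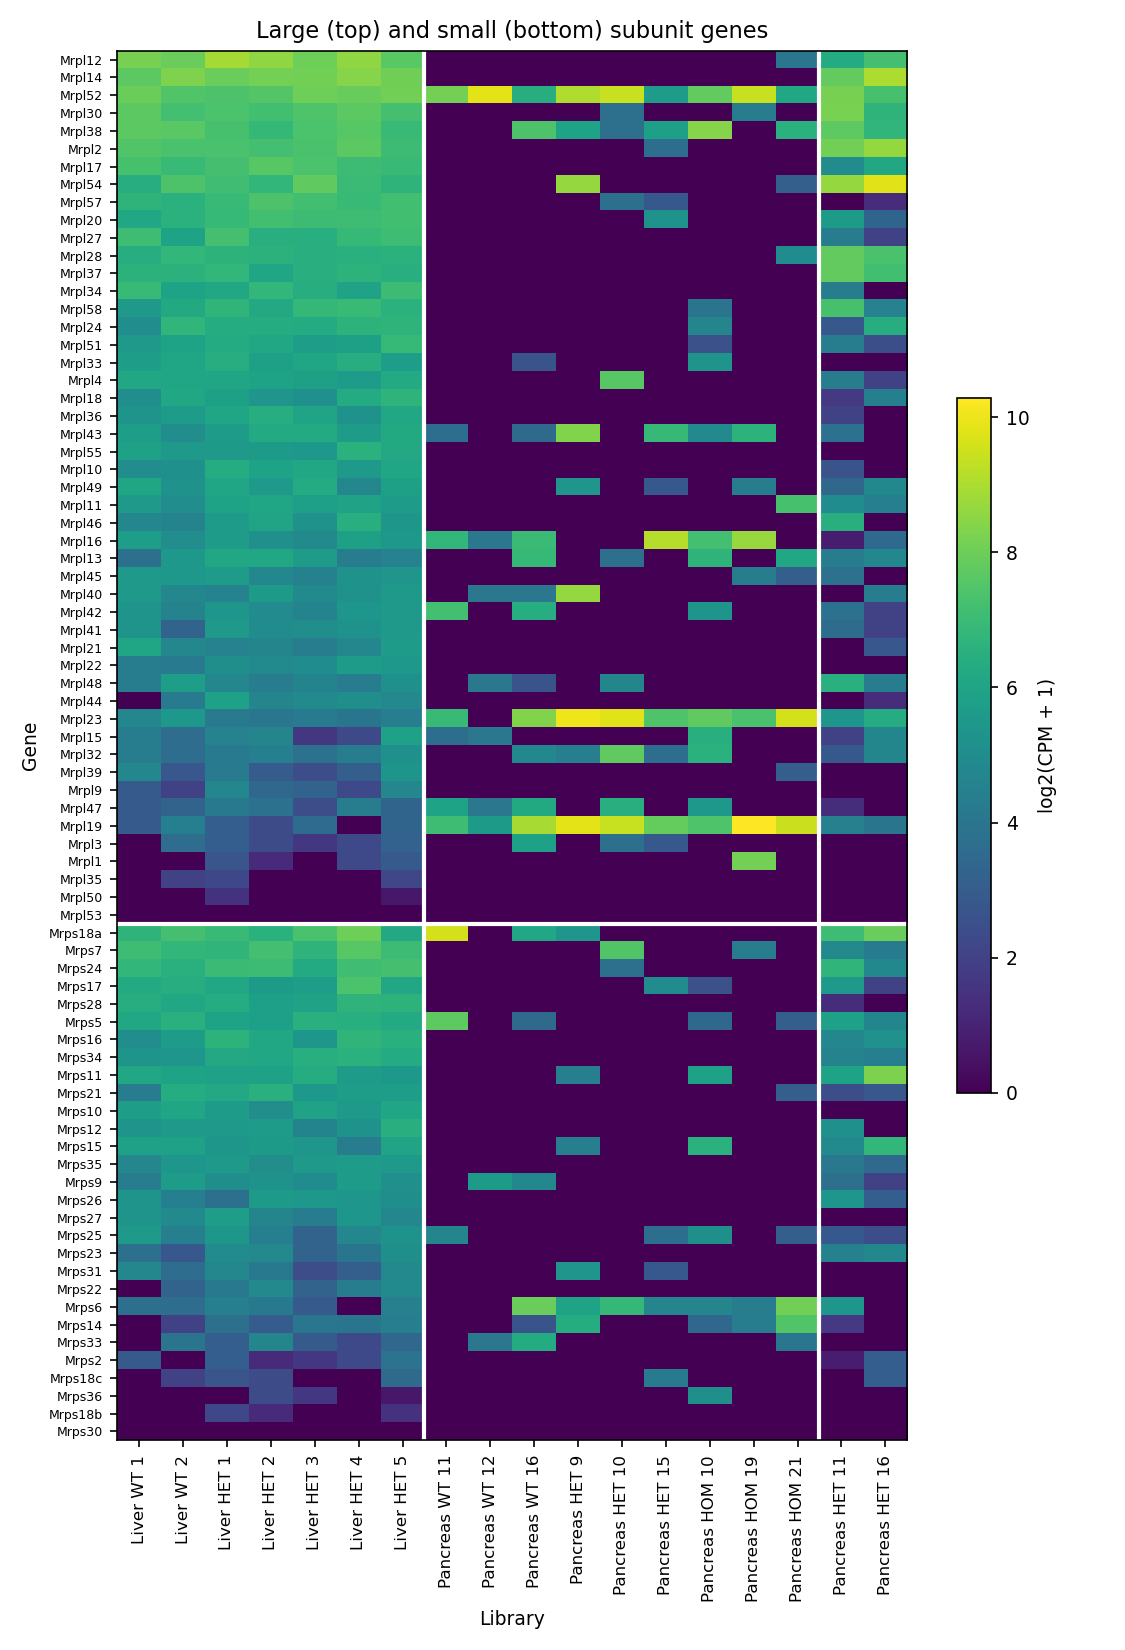
log2(CPM + 1) of the 78 genes (rows, large subunit above the white line, ordered by liver mean) in 7 livers (left block), 9 pancreata (middle block) and pancreata HET 11 and HET 16 (right block). The middle block is dark except for a few rows such as Mrpl19, Mrpl23 and Mrpl52, with 9 to 23 members counted in a library.

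Only 9 members passed the filter in pancreas (Mrpl16, Mrpl19, Mrpl23, Mrpl38, Mrpl43, Mrpl52, Mrpl54, Mrps18a and Mrps6) among 3719 genes. edgeR called 0 of them in each of the 3 pairs of genotypes, and it called 0% of all genes in each. DESeq2 called 0 members in each comparison, where it called 4.92% (HET over WT), 0.134% (HOM over WT) and 1.43% (HOM over HET) of all genes. It gave no adjusted p for 3, 2 and 8 of the 9 members in these comparisons, so the last 0 rests on 1 member. At an unadjusted p under 0.05, 1 member (Mrpl54) was higher in HET than in WT, where 9.2% of all genes were. In HOM, 1 (Mrps18a) was lower than in WT, where 0.914% of all genes were, and 2 (Mrps18a and Mrpl54) were lower than in HET, where 5.03% were. The opposite direction held 0 members in each comparison, against 4.71% of all genes for lower in HET than in WT, 4.06% for higher in HOM than in WT and 6% for higher in HOM than in HET. Mrpl54 passed the filter through HET libraries alone. Mrps18a, with 0 counts in HOM, passed it through the other genotypes. Members that pass in this way have to be higher there, so these directions are descriptions only.

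The member with the smallest p was Mrpl54, a protein of the large subunit. The 3 WT pancreata had none of its counts. HET 9, HET 10, HET 11, HET 15 and HET 16 had 20, 0, 532, 0 and 603, and the HOM pancreata 0, 0 and 1. Nearly all of its counts came from HET 11 and HET 16, and HET 10 and HET 15 had none (edgeR adjusted p = 0.0518 in HET against WT and 0.122 in HOM against HET). The limit that 3 counts over the WT group allow was 9.00 CPM. Without HET 11 and HET 16, only 4 members passed the filter, and 0 were called in HET against WT. Mrpl54 then had counts in HET 9 and HOM 21 only, too few libraries for the filter. It was not among the 4, so that 0 does not bear on it. Mrpl54 was the 1 member called in that comparison without HET 15, where 3.03% of all genes were called, and without sex in the fit, where 3.93% were.

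Mrps18a, the leading small-subunit symbol in liver, had 64, 0 and 13 counts in WT, 2, 0, 180, 0 and 162 in HET 9, HET 10, HET 11, HET 15 and HET 16, and 0 in all 3 HOM. WT 12 and HET 10 and HET 15 were also at 0, so 0 counts were not particular to HOM. The edgeR adjusted p was 0.957 for HOM over WT and 0.122 for HOM over HET, and 3 counts over the HOM group correspond to 7.80 CPM. Mrpl38 had 0, 0 and 32 counts in WT, 3, 1, 282, 9 and 73 in HET and 69, 0 and 12 in HOM. Mrps6 had 0, 0 and 46 counts in WT, 3, 9, 54, 4 and 0 in HET and 5, 1 and 35 in HOM. Mrpl16 had 9, 1 and 24 counts in WT, 0, 0, 1, 92 and 7 in HET and 30, 21 and 0 in HOM. For each of these the spread within a genotype was as wide as the distance between genotypes, and all genotypes overlapped. Of the other small-subunit genes with many counts, Mrps11 had 82 counts in HET 11, 202 in HET 16 and 12 in HOM 10, and Mrps24 had 139 in HET 11 and 18 in HET 16.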

How the data were processed

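Libraries of liver and pancreas RNA were prepared with MARS-seq adapted to bulk samples, a method that reads transcript 3′ ends, per the labels' protocols. cutadapt, STAR and build mm10 are named in the submitters' processing notes. Versions, the counting tool, the annotation, strand and barcode handling are not given in the sources used here. Each deposited file gives counts per gene as whole numbers, which the authors call corrected without saying for what. All 18 libraries were grouped by label, and 0 columns were left over.

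The 78 members, the gene lists and the tests were chosen with earlier results of these data known. CPM is counts per 1e+06 counts of the library. Fits were made in R 4.3.3 with edgeR 4.0.16 (filterByExpr, TMM, robust quasi-likelihood F test, Benjamini-Hochberg over all genes tested, threshold 0.05): liver by genotype (5 residual degrees of freedom), pancreas by genotype and sex in 1 fit (7). The SE is the log2 fold change over the root of F. The script was tested on simulated data with the spread between libraries (dispersion) capped at 1. The common dispersion of the pancreas fit was 2.75, so that test does not cover the spread in pancreas. Alternatives were DESeq2 1.42.0, its size factors, total-count scaling, other filters, no robust fit, no sex term, males only, a replicate block, and leaving out libraries. Expected detection at a common depth was computed from the counts. Limits of 3 counts cover counting error only.

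Named were the 6 most abundant genes of each subunit in liver, in liver the 5 of smallest p on each side, the 3 most counted of each subunit in pancreas, the 2 of smallest p on each side of each pancreas comparison, the Mrps18 genes and Mrps30, and up to 3 genes of each list. Positions are from GENCODE mouse release 21 and promoters from RefSeq (GRCm38.p6).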

Additional observations from a re-analysis of the deposited data

Results flagged for a closer look

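In 6 of the 37 groups of values checked, 1 library lay far from all others of its genotype. For normally distributed values chance flags about 1 in 20 such groups. CPM from few counts, with values of 0 in the pancreas groups, need not follow that rate. In HET livers, Mrps17 stood at 162 CPM in HET 4, with the others at 47.1 to 70.7. Mrpl44 stood at 57.7 CPM in HET 1, with the others at 25 to 34. Mrpl21 stood at 48.6 CPM in HET 5, with the others at 19.7 to 26.4. In HET pancreata, Mrps11 stood at 301 CPM in HET 16 (others 0 to 61.8), Mrps24 at 105 CPM in HET 11 (others 0 to 26.8) and Mrpl16 at 566 CPM in HET 15 (others 0 to 10.4). The 6 values belong to 6 genes, and no cause was tested.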

How the results depend on the processing

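With 2 WT livers, the smallest of 155201 counts, changes of moderate size may not be detectable at this depth. The number of members called in liver stayed at 0 under all 14 alternatives. The median log2 fold change of the tested members was 0.18 with total-count scaling, 0.47 without a filter and 0.27 to 0.51 over fits that left out 1 library, the highest without WT 1. For the large subunit these were 0.22, 0.46 and 0.29 to 0.56, the highest also without WT 1, and for the small subunit 0.063, 0.47 and 0.13 (without HET 5) to 0.34 (without WT 1). Without a filter the median of all genes was 0.43. The HET minus WT difference in summed large-subunit CPM was 658 with TMM library sizes. The cause was not tested.

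Of 21 named members, 9 changed sign under at least 1 alternative. With total-count scaling Mrpl30 had −0.083 and Mrps17 −0.086. Leaving out 1 library gave ranges from −0.093 to 0.51 for Mrpl52, −0.22 to 0.35 for Mrpl30, −0.10 to 0.17 for Mrpl2, −0.13 to 0.50 for Mrps18a, −0.36 to 0.14 for Mrps17, −0.014 to 0.35 for Mrps28, −0.18 to 0.14 for Mrps5, −0.87 to 0.46 for Mrpl48 and −1.06 to 0.33 for Mrpl21.

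WT and HET livers share replicate numbers 1 and 2, which the labels do not tie to animals, and same-numbered libraries deviated with correlations of −0.03 and −0.03. With the replicate block, 0 members and 41 of all genes were called, the members' median was 0.25, and Mrpl52 (−0.13), Mrpl30 (−0.065), Mrps18a (−0.18), Mrps17 (−0.40) and Mrps28 (−0.075) were below 0. In pancreas the replicate block with sex could not be fitted. The number of members called in HET against WT was 1 (Mrpl54) with the block and no sex term, an alternative added after the data were seen that called 4.01% of all genes. It was 1 with no sex term (3.93% of all genes), and 0 to 1 when 1 library was left out, 1 only without HET 15 (3.03%). Mrpl54 passed the filter through HET libraries alone, so it had to be higher there.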
